A study of Gallus gallus with 6 samples.

Results

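The miR-146 family of chicken consists, in the deposited table of hepatic miRNAs, of 6 mature products of 3 hairpins, namely miR-146a-5p, miR-146a-3p, miR-146b-5p, miR-146b-3p, miR-146c-5p and miR-146c-3p. They were taken by name, as every row whose name is miR-146 with the letter a, b or c and either arm, and make up 6 of the 565 listed mature miRNAs. All 6 passed the filter on low counts, which left 236 miRNAs for testing. The libraries are small RNA from the liver of female Lushi green-shell hens, a Chinese domestic breed, kept in cages with free access to feed and water. The hens of L20 were 20 weeks old and not yet laying, and the hens of L30 were 30 weeks old and at peak laying, with 3 libraries per age. Each library is taken here as 1 hen, although neither the labels nor the study's methods state whether livers were pooled. Age and laying stage change together between the groups and cannot be told apart.

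A miRNA hairpin is cut by Dicer into a short duplex with a 5p and a 3p strand. As a rule 1 strand is kept in the Argonaute protein, where its seed at the 5′ end pairs with target mRNAs, and the other is largely degraded. In mammals, miR-146a is induced by NF-κB downstream of Toll-like and interleukin 1 receptors and represses the adaptors IRAK1 and TRAF6, which limits the inflammatory response, and it is abundant in leukocytes. The 5p products of the family share their seed and differ mainly towards the 3′ end. The 3p products are the minor strands.

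In the current RefSeq annotation of the chicken (assembly GRCg7b), the hairpins are encoded by 3 genes on different chromosomes, MIR146A, MIR146B and MIR146C-1. MIR146A overlaps a long non-coding RNA gene and has ATP10B and PTTG2 as the nearest protein-coding genes that do not overlap it. MIR146B overlaps an uncharacterised protein-coding gene next to SLF2, and MIR146C-1 lies within DDRGK1, which encodes a protein of the UFM1 modification pathway. No further miRNA gene was annotated among the 5 annotated genes on either side of any of the 3.

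Between 7135289 and 14822854 reads were counted on listed miRNAs in the L20 libraries and between 3864984 and 8804077 in the L30 libraries. These were 49.1% to 58.0% of the clean reads in L20 and 18.2% to 45.0% in L30, with L30-3 the lowest. Levels are given as TPM, the read count scaled to the clean reads of the library, so the TPM of every miRNA also moves with this share, and the median log2 fold-change of the tested miRNAs was −0.86. The family was deeply counted. The fewest reads of a 5p member in any library were 3789 and the fewest of a 3p member were 213, and 3 reads correspond to 0.113 to 0.223 TPM. Libraries of this kind carry no molecular identifiers, so this limit is one of counting error alone. The alignment tolerated a few mismatches and shifted ends. A read of 1 of the closely related 5p members could therefore be assigned to a sister, and the split between miR-146a-5p, miR-146b-5p and miR-146c-5p is uncertain to that extent.

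All 3 5p members were down-regulated in L30. MiR-146c-5p, the most abundant member, had 62627, 61358 and 47246 TPM in the L20 libraries, given here and throughout in the order of their numbers, and 31045, 8449 and 8582 TPM in the L30 libraries. L30-1 stood well above the other L30 hens, yet below every L20 hen. Its mean of 57077 ± 8538 TPM at 20 weeks went with 16025 ± 13007 TPM at 30 weeks (SD, n = 3 per age), 3.56-fold lower, and it was among the 8 most abundant miRNAs of every library. In edgeR's quasi-likelihood test the log2 fold-change was −1.83 (with a standard error, SE, of 0.46, edgeR adjusted p = 0.00242). This call was lost without L20-2 (adjusted p = 0.0502), without L30-2 (0.0926) and without L30-3 (0.0681), in edgeR fits that otherwise did not change, and the log2 fold-change over the 6 fits that left out 1 library lay between −2.74 and −1.53.

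MiR-146b-5p, the next most abundant member, had 3203, 4057 and 5161 TPM in the L20 libraries and 653, 615 and 266 TPM in the L30 libraries. The lowest L20 hen was 4.91-fold above the highest L30 hen. The means were 4140.2 ± 981 and 512 ± 213 TPM (SD, n = 3 per age), an 8.09-fold difference, with a log2 fold-change of −3.02 (SE 0.50, edgeR adjusted p = 4.05e-07). Only 2 of the 236 tested miRNAs had a log2 fold-change this low, miR-146b-5p included.

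MiR-146a-5p, the best studied member in mammals, had 2080.1, 2352 and 1783 TPM in L20 and 485, 282 and 315 TPM in L30. The hens of each age lay close together, and the lowest L20 hen was 3.68-fold above the highest L30 hen. The means of 2072 ± 284 and 361 ± 109 TPM (SD, n = 3 per age) gave a log2 fold-change of −2.52 (SE 0.50, edgeR adjusted p = 7.72e-05). Leaving out any 1 library kept the calls of miR-146a-5p and miR-146b-5p, with edgeR adjusted p values of at most 0.0282 and 0.00884. MiR-146a-5p ranked between 24 and 27 among the listed miRNAs in the L20 libraries and between 37 and 49 in the L30 libraries.

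**Figure D1:**
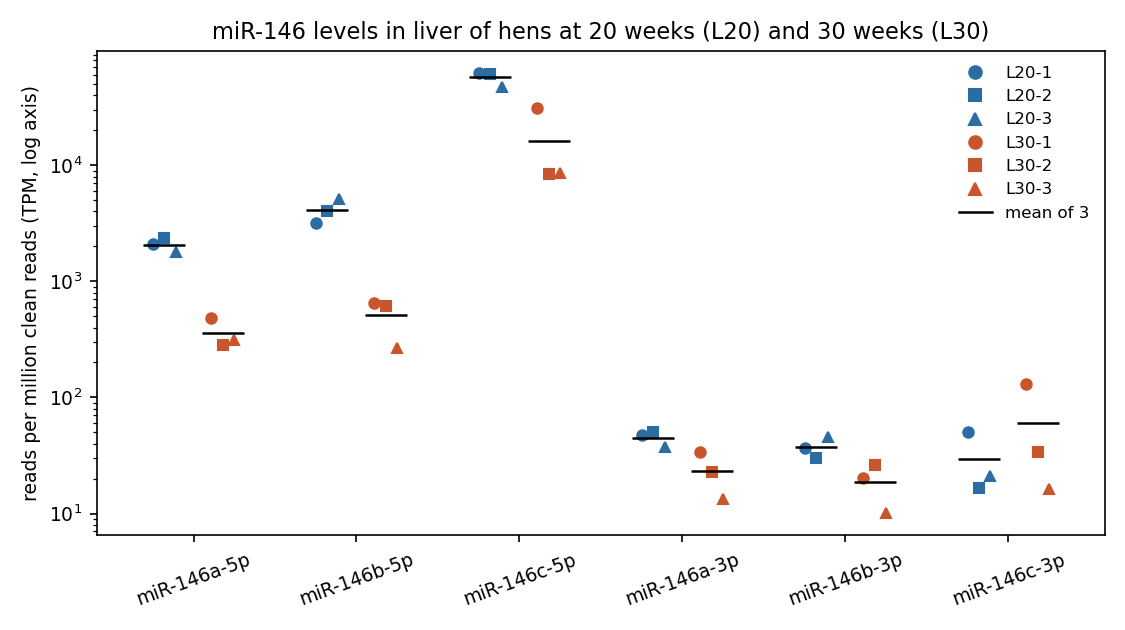
TPM (reads scaled to the clean reads of the library, log axis) of the 6 miR-146 members in each liver library, with 3 libraries at 20 weeks (L20, blue) and 3 at 30 weeks (L30, orange) and a line at the mean of each age. For each of the 3 5p members, every L30 library lies below every L20 library, and for miR-146c the L30-1 library stands above L30-2 and L30-3 in both arms, at 31045 TPM for 5p and 129.5 TPM for 3p.

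The 3p members were far less abundant. With all libraries and the clean reads as library size, none of the 3 was called by edgeR, DESeq2 or limma. None had an unadjusted p up to 0.05 in that edgeR fit. The DESeq2 adjusted p was 0.0876 for miR-146a-3p, 0.0763 for miR-146b-3p and 0.387 for miR-146c-3p. MiR-146a-3p had 47.8, 50.1 and 37.3 TPM in L20 and 33.8, 22.8 and 13.3 TPM in L30, without overlap of the ages. Its log2 fold-change was −0.95 (SE 0.56, edgeR adjusted p = 0.198), and without L30-1 it was −1.32 and called (edgeR adjusted p = 0.0388). MiR-146b-3p had 36.8, 30.1 and 46.0 TPM in L20 and 20.0, 26.1 and 10.01 TPM in L30. Here too the ages did not overlap, by a narrow margin of 1.15-fold, and the log2 fold-change was −1.01 (SE 0.58, edgeR adjusted p = 0.183).

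MiR-146c-3p differed from the rest of the family in having the higher mean in L30. It had 50.6, 16.5 and 21.2 TPM in L20 and 129.5, 34.0 and 16.4 TPM in L30. The ages overlapped, and the highest value at each age was in the library numbered 1. The means were 29.4 ± 18.5 and 59.96 ± 60.9 TPM (SD, n = 3 per age), with a log2 fold-change of 1.03 (SE 0.56, edgeR adjusted p = 0.165). The sign rests on L30-1, since the log2 fold-change without that library was −0.23 (edgeR adjusted p = 0.754).

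In all, 3 of the 6 members were called, each as lower in L30. Over all tested miRNAs, 58 of 236 (24.6%) were called as lower and 0 (0%) as higher by edgeR. At unadjusted p values up to 0.05, 4 were higher, and DESeq2 called 2 as higher and limma 0. With the replicate number of the library names as a block, 88 (37.3%) were called as lower and 2 as higher, and the same count of 3 members was called. For 5 of the 6 members every L30 library lay below every L20 library, which was so for 109 (46.2%) of the tested miRNAs. The number called over all miRNAs moved strongly with single libraries, to 18 without L20-1, 9 without L20-2, 33 without L20-3, 102 without L30-1 and 6 without L30-2. The number of members called stayed between 2 and 4 in these fits.

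Because most miRNAs had lower TPM in L30, the members were also set against the median of the tested miRNAs. Relative to that median the log2 fold-change was −2.15 for miR-146b-5p, −1.66 for miR-146a-5p and −0.97 for miR-146c-5p, whereas it was −0.09 for miR-146a-3p, −0.14 for miR-146b-3p and 1.89 for miR-146c-3p. The scaling of the libraries moved the balance over all miRNAs, from 58 lower and 0 higher with the clean reads to 55 and 22 with TMM factors, 38 and 29 with all counted miRNA reads as library size, 38 and 33 with DESeq2's size factors and 25 and 41 with upper quartile factors. The 3 5p members were called as lower under all 5 of these scalings. The smallest changes were those with upper quartile factors, with log2 fold-changes of −2.06 for miR-146b-5p, −1.40 for miR-146a-5p and −0.96 for miR-146c-5p (edgeR adjusted p = 0.00128, 0.0108 and 0.0337). The values of miR-146a-3p and miR-146b-3p went from −0.95 and −1.01 with the clean reads to 0.027 and 0.017 with upper quartile factors and were called under none of the 5. MiR-146c-3p was positive under all 5 and was called as higher with upper quartile factors only (log2 fold-change 1.79, edgeR adjusted p = 0.0186). All 5 of these fits included L30-1, without which its log2 fold-change with the clean reads was −0.23.

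**Figure D2:**
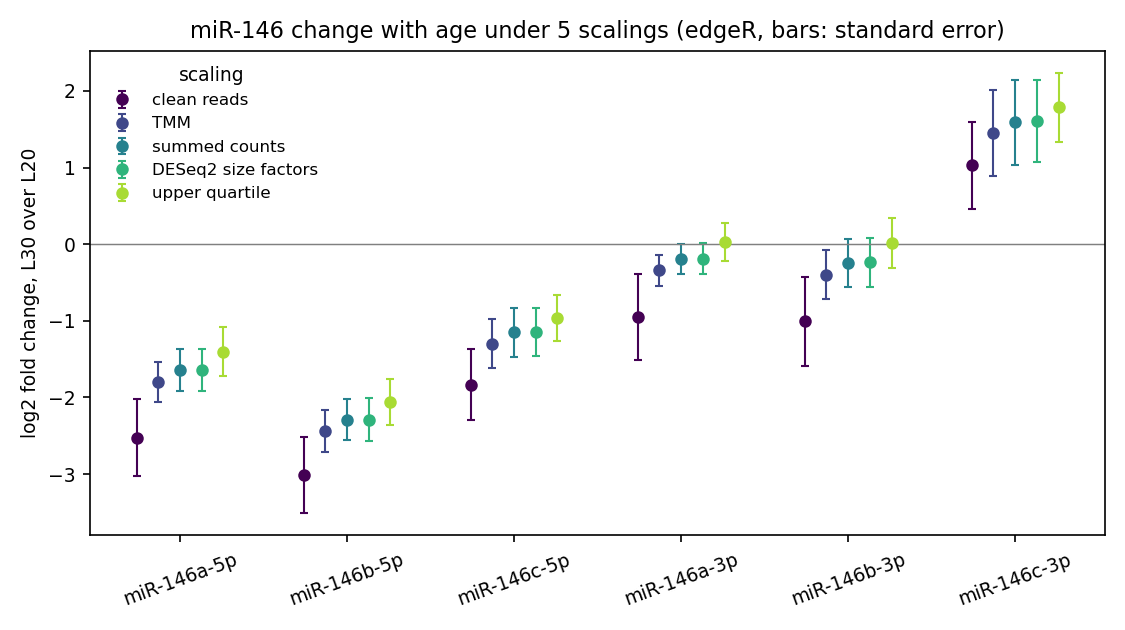
Log2 fold-change (L30 over L20) of the 6 miR-146 members in edgeR under 5 scalings of the libraries, with bars for the standard error. The 5p members stay below 0 throughout, from −3.02 to −0.96, miR-146a-3p and miR-146b-3p cross 0 with upper quartile factors, and miR-146c-3p stays above 0. Every fit shown includes L30-1.

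Summed over its 6 members, the family had 68046, 67863 and 54294 TPM in L20 and 32365.5, 9429 and 9204 TPM in L30. The 3 L30 hens were all lower than the L20 hens, and L30-1 lay between the other L30 hens and L20. The mean was 63401 ± 7887 TPM at 20 weeks and 3.73-fold lower at 30 weeks, with 16999 ± 13308 TPM (SD, n = 3 per age). The exact two-sided permutation p was 0.1, and 3 against 3 libraries cannot give a lower one. As a part of the counted miRNA reads, which needs no clean reads, the family took 11.7%, 12.2% and 11.1% in L20 and 7.19%, 2.84% and 5.07% in L30. Its share of the miRNA reads was thus also lower in each L30 library than in every L20 library. With 13 exact tests on values of the family, the Benjamini-Hochberg adjusted p of every value at p = 0.1 was 0.217.

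MiR-146c-5p supplied most of the family's reads in every library. Its part of the family was 92.0%, 90.4% and 87.0% in L20 and 95.9%, 89.6% and 93.2% in L30, and the ages overlapped (exact two-sided permutation test, p = 0.3). MiR-146b-5p took 4.71%, 5.98% and 9.50% in L20 and 2.02%, 6.53% and 2.89% in L30 (p = 0.3 in the same exact test). MiR-146a-5p took 3.06%, 3.47% and 3.28% in L20 and 1.497%, 2.99% and 3.43% in L30 (exact p = 0.4). The share of each 5p member thus overlapped between the ages, but exact tests on so few libraries cannot exclude a difference. The 95% Wilson interval of each of these shares was at most 0.336 percentage points wide, for counting error only.

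The 3p reads of the family were a small part that did separate the ages. Together they were 0.199%, 0.142% and 0.192% of the family's reads in L20 and 0.567%, 0.879% and 0.431% in L30. MiR-146c-3p alone took 0.0744%, 0.0243% and 0.0390% in L20 and 0.400%, 0.360% and 0.178% in L30, with every L30 hen above every L20 hen (exact two-sided permutation test, p = 0.1). MiR-146a-3p took 0.0687% to 0.0738% in L20 and 0.104% to 0.242% in L30 (exact p = 0.1), and miR-146b-3p took 0.0443% to 0.0847% and 0.0619% to 0.277%, with overlap (exact p = 0.2). Among the 3p reads alone, miR-146c-3p supplied 37.4%, 17.0% and 20.3% in L20 and 70.6%, 41.0% and 41.2% in L30.

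Whether the larger fold-change of miR-146b-5p than of its sisters goes beyond the spread between hens could not be decided with 3 libraries per age. The log2 ratio of miR-146b-5p to miR-146c-5p was −3.80 ± 0.56 in L20 and −4.79 ± 0.92 in L30 (SD, n = 3 per age), a difference of −0.99 with overlapping hens (exact two-sided permutation test, p = 0.3). For miR-146a-5p to miR-146c-5p the difference was −0.44 (exact p = 0.3) and, without L30-1, −0.054, and for miR-146a-5p to miR-146b-5p it was 0.54 (exact p = 0.4). The sister ratios show which libraries carried these differences. The reads of miR-146c-5p per read of miR-146a-5p were 30.1, 26.1 and 26.5 in L20 and 64.1, 30.0 and 27.2 in L30. Thus 5 of the 6 libraries lay within a narrow range although the level of both miRNAs differed several-fold between them, and L30-1 lay apart. Per read of miR-146b-5p there were 19.6, 15.1 and 9.16 reads of miR-146c-5p in L20 and 47.5, 13.7 and 32.2 in L30, which varied among hens of the same age. Whether reads of one 5p member were counted for another was not tested.

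L30-1 had more of both products of the miR-146c hairpin than the other L30 libraries. Set against the mean of L30-2 and L30-3, L30-1 had 3.65-fold more miR-146c-5p and 5.15-fold more miR-146c-3p, but 1.62-fold more miR-146a-5p, 1.48-fold more miR-146b-5p, 1.87-fold more miR-146a-3p and 1.11-fold more miR-146b-3p. TPM moves with the part of the clean reads counted on miRNAs, which was 45.0% in L30-1, 33.2% in L30-2 and 18.2% in L30-3. Each of these ratios therefore also holds this difference, and a value above 1 alone does not set a member apart. MiR-122-5p, outside the family, had 37721, 30959 and 12705 TPM in the L30 libraries. The ratios describe 1 library, and no test was run on them.

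**Figure D3:**
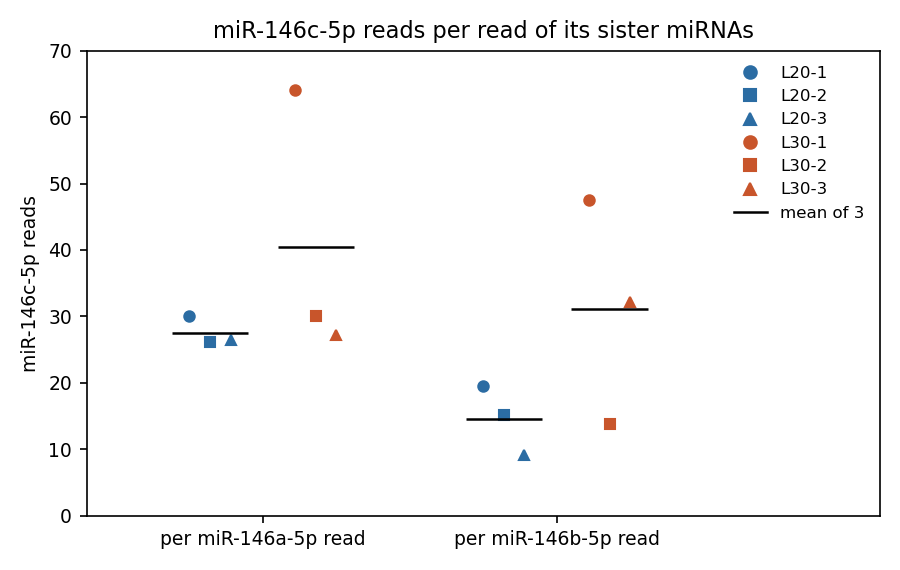
Reads of miR-146c-5p per read of miR-146a-5p (left) and per read of miR-146b-5p (right) in each library, with a line at the mean of each age. Against miR-146a-5p, 5 libraries lie between 26.1 and 30.1 and L30-1 lies at 64.1, and against miR-146b-5p the values spread from 9.16 to 47.5.

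The 5p products of the family were lower in L30 to a greater degree than the 3p products, which was seen most directly from the reads of the 5p strand per read of the 3p strand of the same hairpin in the same library. This ratio needs no library size. For miR-146a it was 43.5, 47.0 and 47.8 in L20 and 14.3, 12.3 and 23.7 in L30. For miR-146b it was 87.0, 135 and 112 in L20 and 32.6, 23.6 and 26.6 in L30. For miR-146c it was 1237, 3728 and 2231 in L20 and 239.7, 249 and 525 in L30. In all 3 hairpins the highest L30 hen lay below the lowest L20 hen, and the 5p strand still exceeded the 3p strand in each library. The exact two-sided permutation test gave p = 0.1 for each of the 3 log2 ratios, the lowest that 3 against 3 libraries can give. Their Benjamini-Hochberg adjusted p over the 13 exact tests was 0.217.

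The change of the 5p to 3p ratio was tested in 1 edgeR fit over the 89 hairpins that had at least 10 reads of each arm over all libraries, out of 135 listed with both arms. The ratio fell in all 3 miR-146 hairpins. Its log2 change was −1.52 for miR-146a (SE 0.29, edgeR adjusted p = 0.00240), −2.003 for miR-146b (SE 0.27, edgeR adjusted p = 0.000570) and −2.79 for miR-146c (SE 0.42, edgeR adjusted p = 0.00135). These calls were kept in each of the 6 fits without 1 library, in the fit with the replicate block and with limma on the log2 ratios, where the highest adjusted p was 0.0473, for miR-146c without L20-2. The mean log2 ratios were 5.52 ± 0.07, 6.78 ± 0.32 and 11.09 ± 0.80 in L20 and 4.01 ± 0.49, 4.77 ± 0.24 and 8.30 ± 0.64 in L30 for miR-146a, miR-146b and miR-146c (SD, n = 3 per age).

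**Figure D4:**
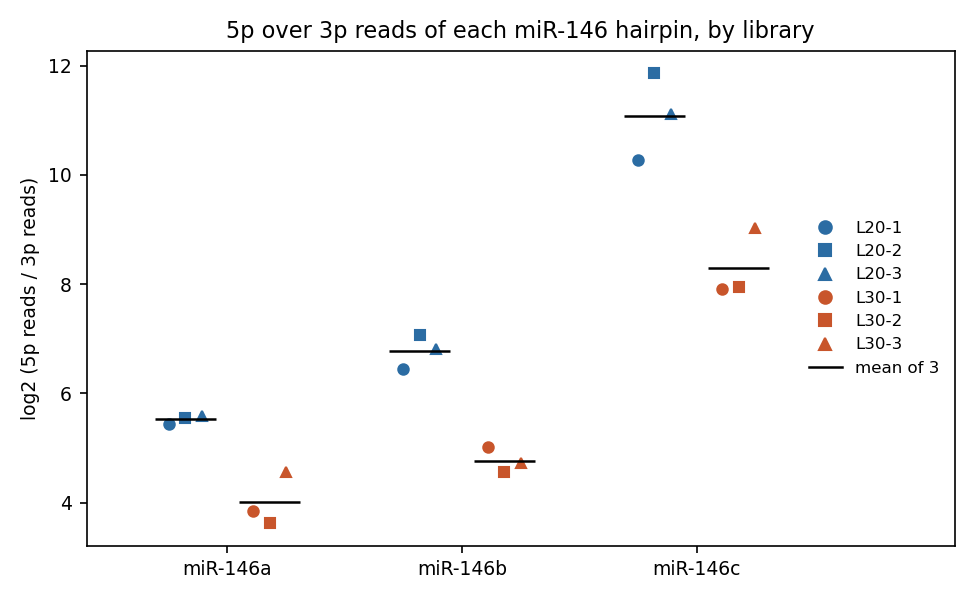
Log2 of the 5p reads over the 3p reads of the miR-146a, miR-146b and miR-146c hairpins in each library, with a line at the mean of each age (n = 3). For each hairpin the 3 L30 libraries lie below the 3 L20 libraries, with mean log2 ratios of 4.01 against 5.52, 4.77 against 6.78 and 8.30 against 11.09.

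Other hairpins changed in both directions. Of the 89 tested, 11 (12.4%) were called with a lower 5p to 3p ratio in L30 and 13 with a higher one, against 10 and 14 with the replicate block, and the median log2 change was 0.25. The ratio was lower in every L30 hen than in every L20 hen for 17 (19.1%) of them. In the fit without L20-3, 12 hairpins were called in all, and limma called 15 against 24 by edgeR. In the order of the log2 change, miR-146c was at place 3, miR-146b at place 5 and miR-146a at place 7 of 89. Since the 5p strand is the larger strand of miR-146, the ratio of the larger to the smaller strand was also taken for every hairpin, a choice made after the values were seen. By that ratio 14 hairpins were called as lower and 10 as higher, the median log2 change was −0.06, and the 3 miR-146 hairpins were at places 3, 6 and 11.

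**Figure D5:**
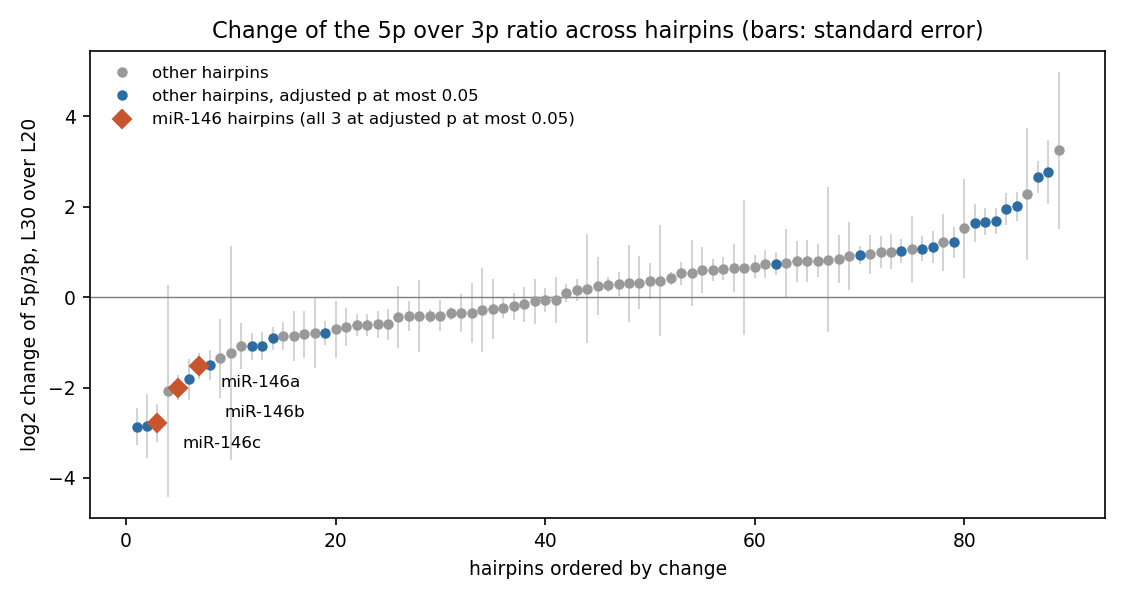
Log2 change of the 5p to 3p ratio (L30 over L20) of 89 hairpins in order of size, with bars for the standard error, hairpins called by edgeR in blue and the 3 miR-146 hairpins as orange diamonds. The miR-146 hairpins are at −2.79, −2.003 and −1.52, towards the lower end, while 13 hairpins are called on the upper side.

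For each member, the tested miRNAs outside the family with the most similar profile were found by the root mean square difference of centred log2(TPM + 1) over the 6 libraries, which is small where a miRNA goes up and down by the same amount in the same libraries. This describes likeness among 230 miRNAs and was not tested. The nearest to miR-146b-5p was miR-24-3p (0.25), followed at some distance by miR-147 (0.47) and miR-2131-5p (0.51). The nearest to miR-146a-5p were miR-7b (0.23), miR-19b-3p (0.27) and miR-10a-3p (0.28), and the nearest to miR-146c-5p were miR-19b-3p (0.23), miR-200a-3p (0.25) and miR-19a-3p (0.26). The 5p sisters were not each other's nearest profiles, and 15 miRNAs outside the family were nearer to miR-146a-5p than miR-146c-5p was. The difference was 0.45 between miR-146a-5p and miR-146c-5p, 0.56 between miR-146a-5p and miR-146b-5p and 0.79 between miR-146b-5p and miR-146c-5p.

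The strands of a hairpin resembled each other still less. The difference between strands was 0.82 for miR-146a, 1.05 for miR-146b and 1.497 for miR-146c. MiR-146a-3p was nearest to miR-101-3p (0.05), miR-130b-3p (0.07) and let-7j-3p (0.08), none of which was called with age. MiR-146b-3p was nearest to miR-3525 (0.22), miR-1552-5p (0.23) and miR-1451-3p (0.27). MiR-146c-3p had no close neighbour, with miR-6648-3p (0.36), miR-3529 (0.38) and miR-130a-5p (0.41) the nearest. MiR-6648-3p and miR-3529 were scarce, with means of 1.75 and 0.75 TPM in L20 and 3.45 and 2.09 TPM in L30. At such levels the added 1 TPM shrinks the differences between libraries.

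The family was set beside a list of miRNAs known from the immune response of mammals. The list was chosen with earlier results of these data known, so its counts are a description and not independent support. Of 31 products listed under 18 names with a row in the table, 24 were tested, 13 had a lower call in L30 and 0 a higher one by edgeR (15 and 0 at an unadjusted p up to 0.05), with a median log2 fold-change of −1.58, against −0.86 and 58 (24.6%) called as lower over all tested miRNAs. The list held 21 names, taken without added letters, so miR-222a, miR-222b and miR-7b were not counted under miR-222 and miR-7. Of these, miR-7b was called as lower (log2 fold-change −2.36, edgeR adjusted p = 0.00179). MiR-222a, miR-222b-3p and miR-222b-5p were tested and not called (log2 fold-changes −1.06, −0.09 and −0.35). Both strands of a hairpin counted as separate products, and smaller strands such as miR-21-3p, miR-142-3p and miR-221-5p were among the called ones. The larger strands miR-21-5p, miR-221-3p and miR-24-3p were called, and miR-142-5p, miR-181a-5p and miR-27b-3p were not (edgeR adjusted p = 0.0596, 0.305 and 0.314). Of the 24 tested products, 21 had a negative log2 fold-change. The positive ones, let-7i (0.50), miR-125b-5p (0.19) and miR-27b-5p (0.06), were not called. Among the products counted, the called ones with the largest changes were miR-24-3p (380.1 ± 74.2 TPM in L20 and 54.1 ± 22.1 TPM in L30, log2 fold-change −2.81, edgeR adjusted p = 9.66e-05), miR-221-5p (log2 fold-change −2.50, edgeR adjusted p = 0.00179) and miR-147 (log2 fold-change −2.28, edgeR adjusted p = 0.00279). MiR-147 is induced by Toll-like receptor signals in mouse macrophages. It had 32.7, 48.5 and 38.2 TPM in L20 and 10.4, 10.3 and 3.85 TPM in L30, without overlap.

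Marker miRNAs of several cell types were also lower in L30, as were most miRNAs, since 189 of the 236 tested had a negative log2 fold-change and 24.6% were called as lower (37.3% with the replicate block). MiR-223, a myeloid miRNA, had 225, 249.8 and 150.1 TPM in L20 and 88.5, 66.9 and 24.3 TPM in L30 (log2 fold-change −1.80, edgeR adjusted p = 0.0122), without overlap. Of the 4 leukocyte products of miR-142, miR-223 and miR-155, 3 were called as lower, and their summed level was 4627 to 6736 TPM in L20 and 943 to 3664 TPM in L30. These 4 products are also in the list of immune response miRNAs above, so the counts of the lists overlap. Most of the leukocyte sum was miR-142-5p (4219 to 6155 TPM in L20 and 878 to 3420 TPM in L30). It was the leukocyte product not called (edgeR adjusted p = 0.0596). MiR-155 was called although the ages overlapped, with 47.1 TPM in L20-3 and 52.6 TPM in L30-1. The erythroid products of miR-451 and miR-144 summed to 1597 to 3181.5 TPM in L20 and 288 to 1197 TPM in L30, and 2 of 3 were called as lower. Both products of the endothelial miR-126 were called as lower, with sums of 28732 to 42751 and 6458 to 14792 TPM. The hepatocyte products of miR-122, which identify the tissue as liver, summed to 50943 to 71219.8 TPM and to 12896 to 38273 TPM, with 1 of 2 called. Nearly all of this sum was miR-122-5p, which was not called (log2 fold-change −1.07, edgeR adjusted p = 0.0622). The called product was the smaller strand miR-122-3p (log2 fold-change −1.50, edgeR adjusted p = 0.0195). Of the mesenchymal list, 0 of 3 were called by edgeR, with adjusted p values of 0.0596 to 0.277 and 2 of 3 at an unadjusted p up to 0.05, and of the bile duct epithelial list 1 of 6. In whole liver, fewer cells of a type and less RNA per cell cannot be told apart, and the part of these cell types in the values of miR-146 was not tested.

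The strand ratio was also available for some hairpins of these cell type lists. The log2 change of the 5p to 3p ratio was 0.61 for the leukocyte miR-142 (SE 0.24, edgeR adjusted p = 0.0733), 0.29 for the erythroid miR-144 (SE 0.26, edgeR adjusted p = 0.428), 0.09 for the endothelial miR-126 (SE 0.20, edgeR adjusted p = 0.752) and 0.42 for the hepatocyte miR-122 (SE 0.15, edgeR adjusted p = 0.0576). It was −0.61 for the mesenchymal miR-199 (SE 0.24, edgeR adjusted p = 0.0733), where every L30 hen lay below every L20 hen. That was so for 17 (19.1%) of the 89 hairpins. For miR-142 and miR-122, neither of them called, every L30 hen lay above every L20 hen. The same was found for hairpins of other kinds, among them let-7a, miR-26a, miR-21, miR-130a and miR-200a. The larger strand of miR-199 is the 3p strand, so that its larger strand gained against the smaller one, unlike in miR-146. Of the bile duct hairpins, miR-200a was called at 1.67 (SE 0.30, edgeR adjusted p = 0.00179), with the 3p strand as its larger strand, so that its larger strand lost against the smaller one as in miR-146. MiR-200b and miR-429 were at 0.95 and −0.16 (edgeR adjusted p = 0.123 and 0.756). The 3p strand is also the larger strand of miR-200b, miR-429 and, with 4341 reads against 2990, miR-144. A positive change of these hairpins is therefore a loss of the larger strand against the smaller one. This comparison was added after the values were seen.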

How the data were processed

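Small RNA libraries of hen liver, 6 in all, were analysed, grouped by age from their labels. The authors removed adaptors and reads that were short or of low quality, matched what was left to miRBase in CLC Genomics Workbench and deposited an unnormalized read count for each miRNA. The deposited TPM were these counts on the scale of the raw reads. Here TPM rests on the clean reads given by the study, and 0 value columns were left unmapped.

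Counts were tested with edgeR 4.0.16 (quasi-likelihood, robust, in R 4.3.3) after filterByExpr, with the clean reads as library sizes, normalization factors of 1 and Benjamini-Hochberg adjustment, and called at an adjusted p of at most 0.05. The standard error is the log2 fold-change divided by the root of the F statistic. Strand ratios were tested with edgeR on paired columns of the 5p and 3p counts with a term per library. Values of the family alone used exact permutation tests over 20 regroupings, with 0.5 added to each count for strand ratios. The alternatives were DESeq2 1.42.0, limma 3.58.1 with a pseudocount of 1 TPM, a pooled Fisher's exact test, other scalings and filters, a replicate block and each library left out. The edgeR fits were also run on simulated counts with planted rises and falls in equal number. That setting does not cover data in which most miRNAs move the same way. Figures were drawn with matplotlib 3.10.9.

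Libraries of the ages share replicate numbers in their names. Deviations from the age means correlated at 0.119, 0.171 and 0.188 for the same-numbered pairs and between −0.134 and −0.017 for the other pairs. Deviations cancel within an age, so these values depend on each other. Counts of calls are also given from the fit with the number as a block. The labels do not say what a number stands for, and the hens differ. Members and lists were chosen with earlier results of these data known. Named miRNAs were the members, their 3 nearest profiles, at most 3 called miRNAs per list and those that the list names missed. Further strands and hairpins were named after the values were seen. The edgeR P values set the difference between the ages against the spread between libraries of an age, moderated over all tested miRNAs. The exact P values give the part of the 20 regroupings with a difference at least as large.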

Additional observations from a re-analysis of the deposited data

How the results depend on the processing

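The changes in the summed level, shares and ratios of the family kept their sign under every alternative run, but several changed in size. Without L30-1 the change of the miR-146a-5p share went from −0.63 to −0.061 percentage points, and without L30-2 that of miR-146b-3p from 0.088 to 0.024. Fisher's exact test on pooled counts, which ignores the spread between hens, called 205 miRNAs and all 6 members, with miR-146c-3p as higher. The fit with a replicate block called 90 miRNAs, and the block changed no call of a member or of a miR-146 hairpin. With each library left out in turn, 6 to 102 miRNAs, 2 to 4 members and 12 to 28 hairpins were called, and limma called 15 hairpins. For single members, the log2 fold-change turned positive with upper quartile factors for miR-146a-3p (0.027) and miR-146b-3p (0.017), and that of miR-146c-3p ranged from −0.23, without L30-1, to 1.67 with 1 library left out. The cause was not tested. The summed level of the family stayed lower in L30 when the summed counts were the library size and, as chosen after seeing the data, without miR-146c-5p (a difference of −5349.8 TPM in place of −46401.7 TPM). With 3 libraries per age, exact tests could not go below p = 0.1.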
